A study of Oryzias latipes with 3 samples.

Results

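The very remote acetylated sites of the medaka embryo are 833 narrow peaks of histone H3 lysine 27 acetylation (H3K27ac) that lay more than 100 kb from any peak of histone H3 lysine 4 trimethylation (H3K4me3). They were chosen by position and width alone. Each shares no base with an H3K4me3 peak, is under 2500 bp wide, and has its midpoint over 100 kb from the nearest H3K4me3 midpoint of its chromosome. They make up 3.47% of the 24027 H3K27ac peaks (Wilson 95% interval 3.24 to 3.71) and 6.44% of the 12938 H3K27ac peaks without H3K4me3, here called H3K27ac-only (6.03 to 6.87). The lists come from chromatin immunoprecipitation and sequencing of whole Oryzias latipes (medaka) embryos at stage 24, raised at 26 °C, with chromatin of 600 embryos per sample and no treatment or mutation named in the labels. One list of each mark was used: H3K27ac replicate 1, precipitated with an Abcam antibody, and H3K4me3, precipitated with a Diagenode antibody and holding 12884 peaks. A second H3K27ac sample of the series is not analysed here. Since whole embryos were used, a peak found in few cells and a weak peak found in many cells cannot be told apart.

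Acetylation of H3K27 is laid down at active enhancers and active promoters, whereas trimethylation of H3K4 is concentrated at promoters. An acetylated site without H3K4me3 is therefore commonly read as an enhancer candidate. Vertebrate enhancers can act over long stretches of sequence, and such long-range control is best known for genes of embryonic patterning, some of which lie next to large gene-poor regions. Stage 24 falls within somite formation in medaka, when the brain, eyes and heart are also forming. H3K4me3 stands here for the promoters that carried the mark in these embryos; a promoter without the mark is not seen, so the distances are not distances to genes. Gene names and sequences of the sites were not used here, because peaks ran past the last gene on 8 chromosomes of the available RefSeq annotation (ASM223467v1). Positions are 1-based and follow the coordinates of the peak lists, whose build no source used here names.

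The sites thinned out with distance. The median distance of the 833 sites was 146 kb, with quartiles of 119 and 191 kb. From 100 to 150 kb lay 446 sites, or 53.5% (50.1 to 56.9), and over 200 kb lay 185, or 22.2% (19.5 to 25.2). Beyond 300 kb there were 42 sites and beyond 400 kb there were 8. The farthest site was a peak of 650 bp on chromosome 18 at 16036084 to 16036733, with a score of 96.4. It lay 518 kb from the H3K4me3 peak on its left and 501 kb from that on its right, and the nearest other H3K27ac peak was 105 kb away. The next was a peak of 532 bp on chromosome 22 at 27026863 to 27027394, at 495 kb and with a score of 66.2. A pair of peaks 0.9 kb apart on chromosome 4, at 21264489 to 21265049 and 21265409 to 21265928, lay 441 kb from H3K4me3. Of the 10 farthest sites, 9 scored below the median of the H3K27ac list, 195, a share near that of all very remote sites, of which 78.8% scored below it (75.8 to 81.4). The median width of the 10 was 546.5 bp. The exception was a peak of 1413 bp near an end of chromosome 13, at 33392520 to 33393932. It scored 469, had no H3K4me3 peak on its right, and lay 349 kb from the nearest other H3K27ac peak.

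Members next to the 100 kb limit and peaks just outside it had scores in the same range. The 5 members just inside it, at 100.07 to 100.22 kb, scored between 55.6 and 122, and the 5 peaks just outside it, at 99.64 to 99.95 kb, scored between 53.7 and 177. The distance that set a site apart also rested on how weak an H3K4me3 peak was accepted. Measured to H3K4me3 peaks that overlapped H3K27ac, the median distance was 151 kb, and 133 of the 833 sites lay farther from these than from H3K4me3 in general. Measured to the stronger part of the H3K4me3 list, with scores at or above its median, it was 189 kb, with a maximum of 1127 kb.

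The number of sites depends on how much sequence lies so far from H3K4me3. Sequence over 100 kb from H3K4me3 amounted to 119 Mb, which is 16.6% of a peak-bearing span of 714 Mb over the chromosomes. It carried 7.02 very remote sites per Mb (exact Poisson 95% interval 6.55 to 7.51). For comparison, distal sites are the peaks chosen in the same way at over 20 kb and up to 100 kb, of which there were 5089, and proximal sites are those at over 5 kb and up to 20 kb, of which there were 4843. Distal sites stood at 17.9 per Mb of the sequence at their distance (17.4 to 18.4), so that the density of very remote sites was 0.392 times that of distal sites. The contrast was smaller without stretches of over 1 Mb between neighbouring H3K4me3 peaks, at 8.81 against 18.0 per Mb. In intervals of 300 kb to 1 Mb alone, a setting chosen with the data already seen, it was 8.13 against 14.5. The density of very remote sites was below that of distal sites on all 24 chromosomes, and on 23 of them when stretches of over 1 Mb between neighbouring H3K4me3 peaks were left out, which was counted with the data already seen. The exception was chromosome 2, which then had 18.6 very remote sites per Mb (14.8 to 23.1), against 16.7 distal sites per Mb. No test was made between these classes, because each mark has 1 list and peaks are not replicates. The intervals cover counting error only and treat sites as independent, which sites of the same neighbourhood are not.

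From 5 kb outwards each bin of distance was less dense than the one before it. It was 24.6 sites per Mb at 5 to 20 kb, 20.3 at 20 to 50 kb, 14.2 at 50 to 100 kb, 9.79 at 100 to 150 kb, 8.72 at 150 to 200 kb, 6.59 at 200 to 300 kb and 1.48 beyond 300 kb. Of the sequence beyond 100 kb, 26.3 Mb belonged to 16 stretches of over 1 Mb between neighbouring H3K4me3 peaks, which held 18 sites. When only the 293 intervals over 300 kb and up to 1 Mb were counted, a selection made after the data had been seen, density was 19.0 at 5 to 20 kb, 17.9 at 20 to 50 kb and 12.4 at 50 to 100 kb. In the same intervals it was 8.94 at 100 to 150 kb (7.89 to 10.1), 9.14 at 150 to 200 kb (7.91 to 10.5), 7.51 at 200 to 300 kb (6.31 to 8.87) and 4.05 beyond 300 kb (2.81 to 5.66). From 100 to 300 kb the counting intervals of the 3 bins overlapped, and beyond 300 kb the interval lay below all 3. The bins do not draw on the same intervals, since a position over 300 kb from both bounds exists only in intervals of over 600 kb. The part over 100 kb from both bounds held 6.10 sites per Mb in intervals of 600 to 1000 kb, against 10.9 in those of 300 to 400 kb. The part of interval length in the values by distance was not tested.

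**Figure D1:**
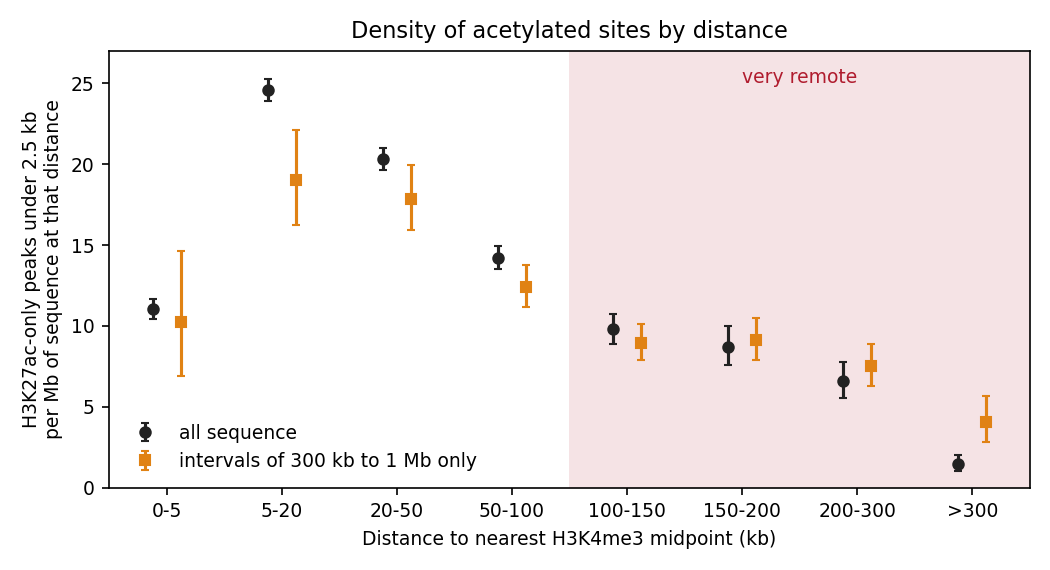
H3K27ac-only peaks under 2500 bp per Mb of sequence (vertical axis) in bins of distance to the nearest H3K4me3 midpoint in kb (horizontal axis), over all sequence (circles) and in intervals over 300 kb and up to 1 Mb between H3K4me3 midpoints (squares), with exact Poisson 95% intervals. Over all sequence the density was 9.79 per Mb at 100 to 150 kb and 1.48 per Mb beyond 300 kb, and the squares lie higher beyond 300 kb, at 4.05.

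Very remote sites were narrower than distal and proximal sites, and their scores were close to those of distal sites. Scores are as the authors' peak caller gave them and are compared only within the H3K27ac list. The scores of very remote sites ran from 50.0 to 1120 with a median of 97.2 (order-statistic 95% interval 91.1 to 103), against 104 for distal sites (101 to 106) and 109 for proximal sites (106 to 113). The interval of the very remote median overlapped that of the distal median. The difference was -6.34 (-12.45 to -0.47, with the distal median held fixed), and this interval included 0 in 4 of the 9 alternatives run. Of the very remote sites, 21.2% reached the median of the whole list (18.6 to 24.2), against 22.5% of distal sites (21.4 to 23.7) and 24.3% of proximal sites (23.1 to 25.5). The lowest quintile of the list by score, at 79.3 or less, contained 38.2% of very remote sites (34.9 to 41.5), against 34.3% of distal sites (33.0 to 35.6). The top quintile, from 674 upwards, contained 7 of the 833 very remote sites and 66 of the 5089 distal sites. Scores as low were also found next to H3K4me3, among the 1262 peaks chosen in the same way at up to 5 kb. Their median score was 97.55 (94.0 to 103), and 37.4% of them were in the lowest quintile (34.8 to 40.1). The median score thus did not fall steadily with distance. Within chromosomes the order of the very remote and distal medians was mixed. The very remote median score was the lower one on 13 of 24 chromosomes, and on 10 of the 19 chromosomes with 20 or more very remote sites.

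The difference in width was clearer. The median width was 886 bp for very remote sites (846 to 926), against 975 bp for distal sites (950 to 996) and 1013 bp for proximal sites (995 to 1036), and it was lower than the distal median on 18 of 24 chromosomes and on 13 of the 19 with 20 or more very remote sites. Chromosome 2, which held most sites, ran the other way, with 1035 bp for very remote and 879.5 bp for distal sites. Peaks narrower than 1 kb made up 59.1% of very remote sites (55.7 to 62.4), against 51.7% of distal sites (50.3 to 53.1). The rule caps width at under 2500 bp in each of these classes. Without the width limit the medians were 910.5 bp for very remote and 1030 bp for distal sites. Score and width went together across the very remote sites, with a Spearman rho of 0.76 over the 833 sites, which share 1 library. For distance, rho was -0.047 with score and -0.071 with width. The 42 sites beyond 300 kb had a median score of 76.7 (64.2 to 92.4) and a median width of 713 bp (650 to 785), while the 446 sites at 100 to 150 kb had medians of 101 and 901 bp. In the bins between, the medians were 92.7 and 903.5 bp at 150 to 200 kb, and 99.8 and 908 bp at 200 to 300 kb.

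At like width the scores of very remote and distal sites were close, and their order turned. Among peaks under 750 bp the median score was 65.6 in very remote sites and 64.6 in distal sites. From 750 to 1000 bp it was 100.2 and 97.8. From 1000 to 1500 bp the median was 150 in very remote sites (137 to 161) and 139 in distal sites (134 to 145). From 1500 to 2500 bp it was 249 in very remote sites (224 to 270) and 222 in distal sites (210 to 236). In all 4 bands the interval of the very remote median overlapped that of the distal median. The very remote median was above the distal one in each band, although over all widths it was the lower one. The interval of the proximal median overlapped that of the very remote median in the narrower bands. At 1500 to 2500 bp it lay below it, with a proximal median of 211 (203 to 222).

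**Figure D2:**
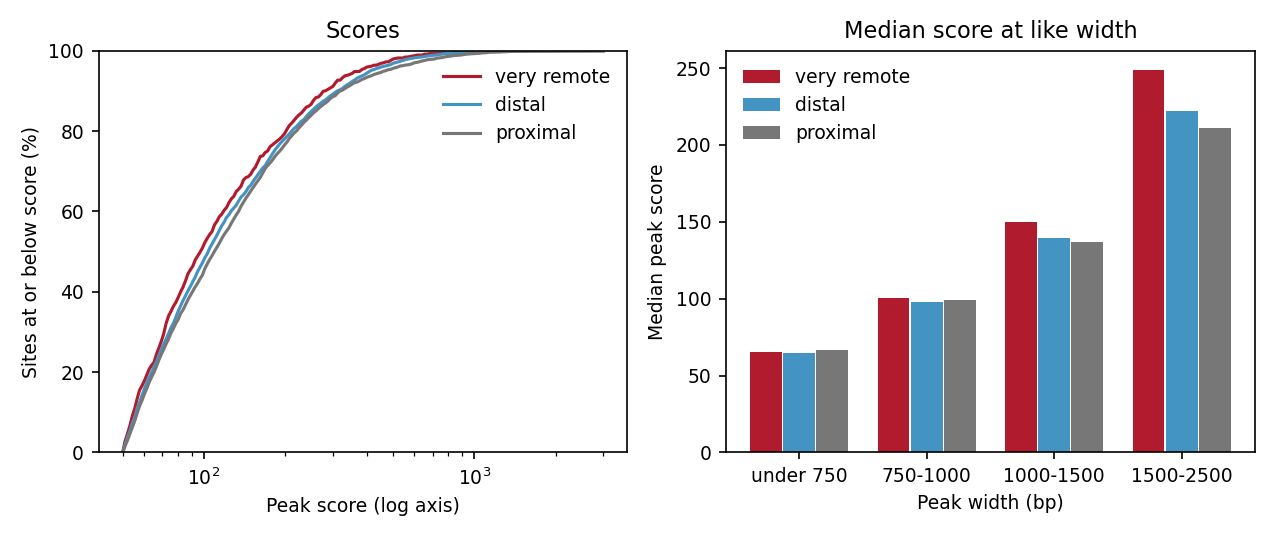
Left, share of sites in percent at or below each peak score (log axis) for very remote, distal and proximal sites, and right, median peak score of the same classes in 4 bands of peak width in bp. The very remote curve lies highest over most of the range, with a median score of 97.2, while at 1500 to 2500 bp the very remote median, 249, is above the distal 222 and the proximal 211.

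The strongest very remote sites all lay within 200 kb of H3K4me3, but so did most members, of which 22.2% lay farther away. Over all members the Spearman rho of score with distance was -0.047. The 10 sites of highest score were 1289 to 2407 bp wide and 103 to 198 kb from H3K4me3. The highest, 1120, belonged to a peak of 2182 bp at chromosome 5, 20489871 to 20492052, at 157 kb. It ranked 2432nd in the H3K27ac list and closed a group of 3 sites, with the next peak 2.25 kb away. The second, 1104, was a peak of 1647 bp at chromosome 18, 5687636 to 5689282, at 133 kb. It lay 7.01 kb from an H3K27ac-only peak of 4782 bp, at 5693083 to 5697864, that exceeds the width limit. The third, 972, was a peak of 1884 bp at chromosome 3, 14408111 to 14409994, at 123 kb and with no other H3K27ac peak within 23.4 kb. A site at chromosome 16, 8474834 to 8476859, scored 933 and lay 103 kb from H3K4me3, and one at chromosome 24, 13185344 to 13187135, scored 836 at 109 kb. Chromosome 2 held 3 of the 10, at 5253303 to 5255349 with a score of 744, at 5503303 to 5505709 with 681, and at 30442352 to 30444423 with 603. The first and second of these lay in the same H3K4me3-free interval. The remaining sites of the 10 were on chromosome 9, at 7512210 to 7513778 with a score of 654, and on chromosome 10, at 24857836 to 24859124 with 645. Of the 10, 6 had another H3K27ac peak within 10 kb.

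The widest members lay close to the 2500 bp limit and were not all strong. The widest, 2487 bp at chromosome 2, 5490022 to 5492508, scored 487. A peak of 2414 bp at chromosome 3, 28301962 to 28304375, scored 75.02, and one of 2364 bp at chromosome 4, 4877279 to 4879642, scored 125. The 10 widest ran from 2364 to 2487 bp and scored between 75.02 and 681. Another 35 H3K27ac-only peaks beyond 100 kb were left out by the width limit alone. They were 2508 to 5890 bp wide, with a median score of 372 and a median distance of 140 kb. The narrowest of them, 2508 bp at chromosome 14, 29160776 to 29163283, scored 320, and the highest score among them, 1199, belonged to 2562 bp at chromosome 9, 22722938 to 22725499. Of these 35, 12 had a very remote site within 10 kb, and 17 very remote sites had such a broad neighbour.

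Very remote sites were found on all 24 chromosomes in very unequal numbers. Chromosome 2 held 81, chromosome 13 held 69, chromosome 22 held 60, chromosome 20 held 55 and chromosome 10 held 50. These 5 chromosomes together held 315 sites, or 37.8% (34.6 to 41.2). Chromosome 8 held only 5, and chromosomes 6 and 21 held 15 each. On chromosome 2 very remote sites were 21.4% of all H3K27ac-only peaks, compared with 1.14% on chromosome 8. The amount of sequence far from H3K4me3 also differed and was 34.9% of the peak-bearing span of chromosome 2 and 7.01% of that of chromosome 8. On chromosome 6, with its 15 sites, it was 6.87%. For chromosome 2 this sequence came to 9.32 Mb, but to 4.36 Mb without stretches of over 1 Mb between neighbouring H3K4me3 peaks. Across the 24 chromosomes the number of sites and the megabases beyond 100 kb had a Spearman rho of 0.52, and of 0.59 without the stretches over 1 Mb.

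Per megabase beyond 100 kb the order of the chromosomes was different, and it depended on the stretches of over 1 Mb. With them, chromosome 13 was densest, with 14.2 sites per Mb (11.1 to 18.0), followed by chromosome 20 with 12.6 (9.50 to 16.4) and chromosome 22 with 12.5 (9.55 to 16.1), and these intervals overlap. Chromosome 2 stood at 8.69 (6.90 to 10.8). The lowest values were 2.78 on chromosome 8 (0.904 to 6.50), 2.81 on chromosome 1 (1.78 to 4.21), 2.82 on chromosome 21 (1.58 to 4.66), 3.82 on chromosome 18 (2.61 to 5.40) and 4.33 on chromosome 14 (3.00 to 6.05). Without those stretches chromosome 2 was densest, at 18.6 per Mb, followed by chromosome 13 at 14.2, while chromosome 14 stood at 12.6, chromosome 18 at 5.61, chromosome 1 at 5.36, chromosome 21 at 4.50 and chromosome 8 at 2.78. Chromosome 1 carries the sex-determining region of medaka, whose position was not used here. The longest intervals without H3K4me3 on chromosome 1, 2448 and 1855 kb, contained no H3K27ac-only peak at all. Intervals of over 1 Mb without such a peak also lay on chromosomes 2, 5 and 14. Within 1 Mb of the first or last peak of a chromosome there were 59 very remote sites. They stood at 11.2 per Mb of sequence beyond 100 kb (8.53 to 14.5), against 7.02 for all such sequence. The ends are defined by these same peaks and sequence past them was not counted, which can raise the density there. How much it did was not tested. Without the stretches of over 1 Mb the value for all such sequence was 8.81 (8.22 to 9.44), an interval that overlaps that of the ends. For the ends no value without those stretches is given.

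**Figure D3:**
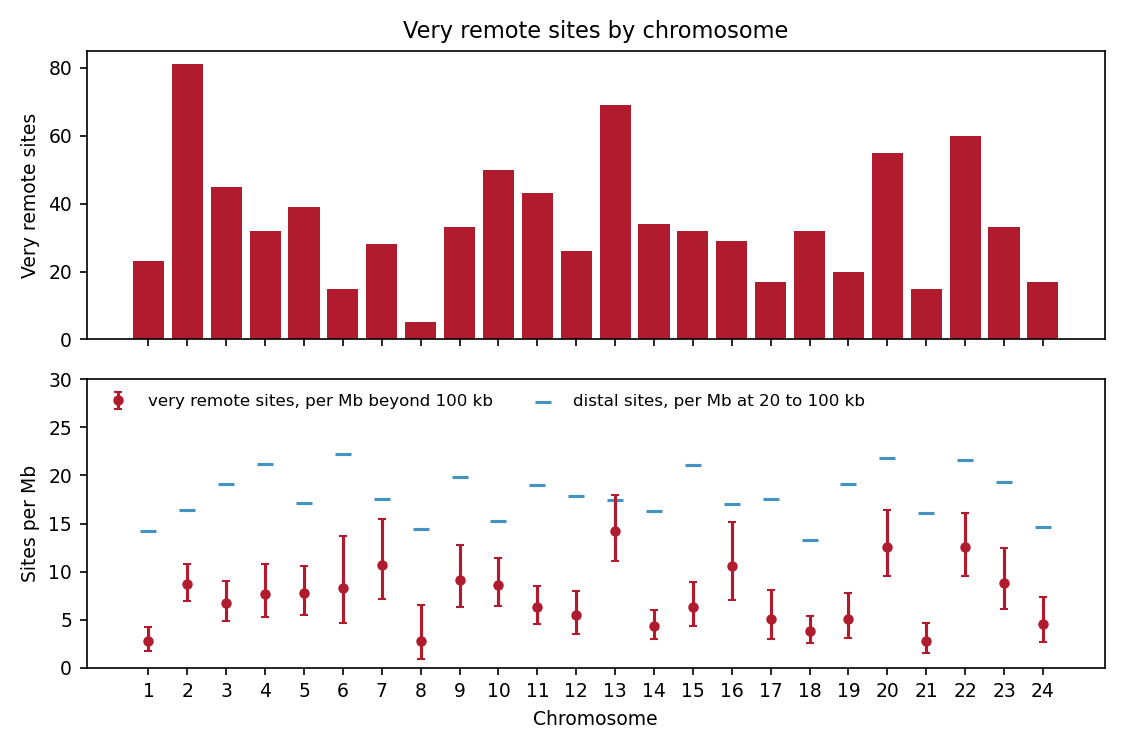
Very remote sites on each chromosome (bars, upper panel) and, in the lower panel, very remote sites per Mb of sequence over 100 kb from H3K4me3 with exact Poisson 95% intervals (circles) beside distal sites per Mb of sequence at 20 to 100 kb (dashes). Chromosome 2 has most sites, 81, and chromosome 13 the highest density, 14.2 per Mb, and the circle lies below the dash on all 24 chromosomes, which without stretches of over 1 Mb holds for 23 of them, with chromosome 2 at 18.6 per Mb.

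A very remote site needs an interval of over 200 kb between neighbouring H3K4me3 midpoints, or the end of a chromosome. There were 665 such intervals. Of these, 302 held at least 1 very remote site, or 45.4% (41.7 to 49.2), and 363 held none. The intervals contained 822 of the sites, and the other 11 lay beyond the first or last H3K4me3 peak of a chromosome. Most intervals with sites had few: 118 held 1 site and 72 held 2. At the other end, 40 intervals with 5 or more sites held 318 sites, and the 10 intervals with 10 or more held 138, which is 16.6% of all very remote sites (14.2 to 19.2).

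Longer intervals held sites more often up to 1 Mb, but not above it. Sites were present in 20.9% of the 225 intervals of 200 to 250 kb, in 64.2% of the 137 intervals of 300 to 400 kb and in 75.9% of the 54 intervals of 600 to 1000 kb. The density in their inner part, over 100 kb from both bounds, went the other way. It was 13.8 sites per Mb for 200 to 250 kb (10.7 to 17.5), 10.9 for 300 to 400 kb (9.49 to 12.5) and 6.10 for 600 to 1000 kb (5.25 to 7.05). Of the 16 intervals over 1 Mb, 11 held no very remote site, and their inner density was 0.686 per Mb (0.406 to 1.08). The longest, 5162 kb on chromosome 2 between H3K4me3 midpoints at 7642792 and 12804311, and 2 of the next 5, held no H3K27ac-only peak. Another 94 intervals of over 300 kb and up to 1 Mb held no very remote site. Whether reads could be placed in these stretches was not tested.

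**Figure D4:**
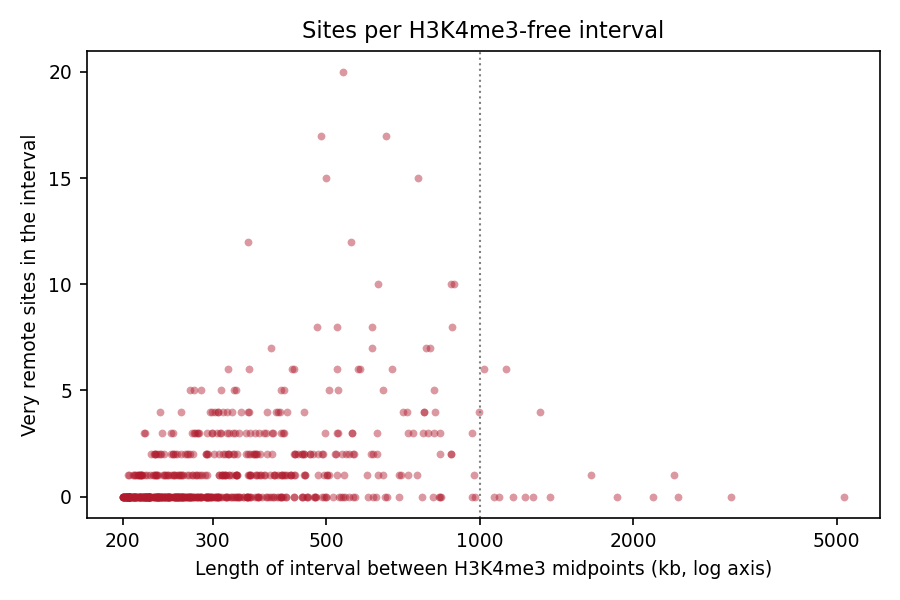
Very remote sites (vertical axis) in each of the 665 intervals over 200 kb between neighbouring H3K4me3 midpoints, by interval length in kb (log axis), with 1 point per interval and a dotted line at 1000 kb. The highest points, 20, 17, 17, 15 and 15 sites, lie between 490 and 756 kb, and 11 of the 16 intervals beyond the line hold none.

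The interval with most sites lay on chromosome 2 between H3K4me3 midpoints at 5111008 and 5649882. It was 539 kb long and held 20 very remote sites with a median score of 129, among 31 H3K27ac-only peaks in all, with neighbouring midpoints at most 72.5 kb apart. Chromosome 22 held the second and the third, which adjoin. The second ran for 490 kb from 9787518 to 10277268, with 17 sites, a median score of 123 and a maximum of 585. The third ran for 654 kb from 10277268 to 10931691, again with 17 sites, a median score of 129 and a maximum of 307. A single H3K4me3 peak separates them, at 10275523 to 10279013, which was 3491 bp wide, acetylated, and had a score of 3100. The fourth, 500 kb on chromosome 2 from 19024717 to 19524391, held 15 sites with a median score of 137. The fifth, 756 kb on chromosome 10 from 3940557 to 4696607, held 15 with a median score of 96.5.

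The other 5 of the 10 richest intervals held 10 or 12 sites each. One of 559 kb on chromosome 9, from 23524398 to 24083839, and one of 351.5 kb on chromosome 13, from 29441770 to 29793270, held 12 each. The interval on chromosome 13 was the shortest of the 10 and had the highest inner density, 79.2 sites per Mb. Chromosome 11 had 10 sites in 632 kb from 23877019 to 24509419 and 10 in 890 kb from 11226804 to 12116828. Chromosome 13 had 10 sites in 877 kb from 651152 to 1528647. These 3 intervals of 10 sites had median scores of 76.6 to 82.2, below the median of all very remote sites, as was the 96.5 of the interval on chromosome 10, while the 4 richest had medians of 123 to 137.

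**Figure D5:**
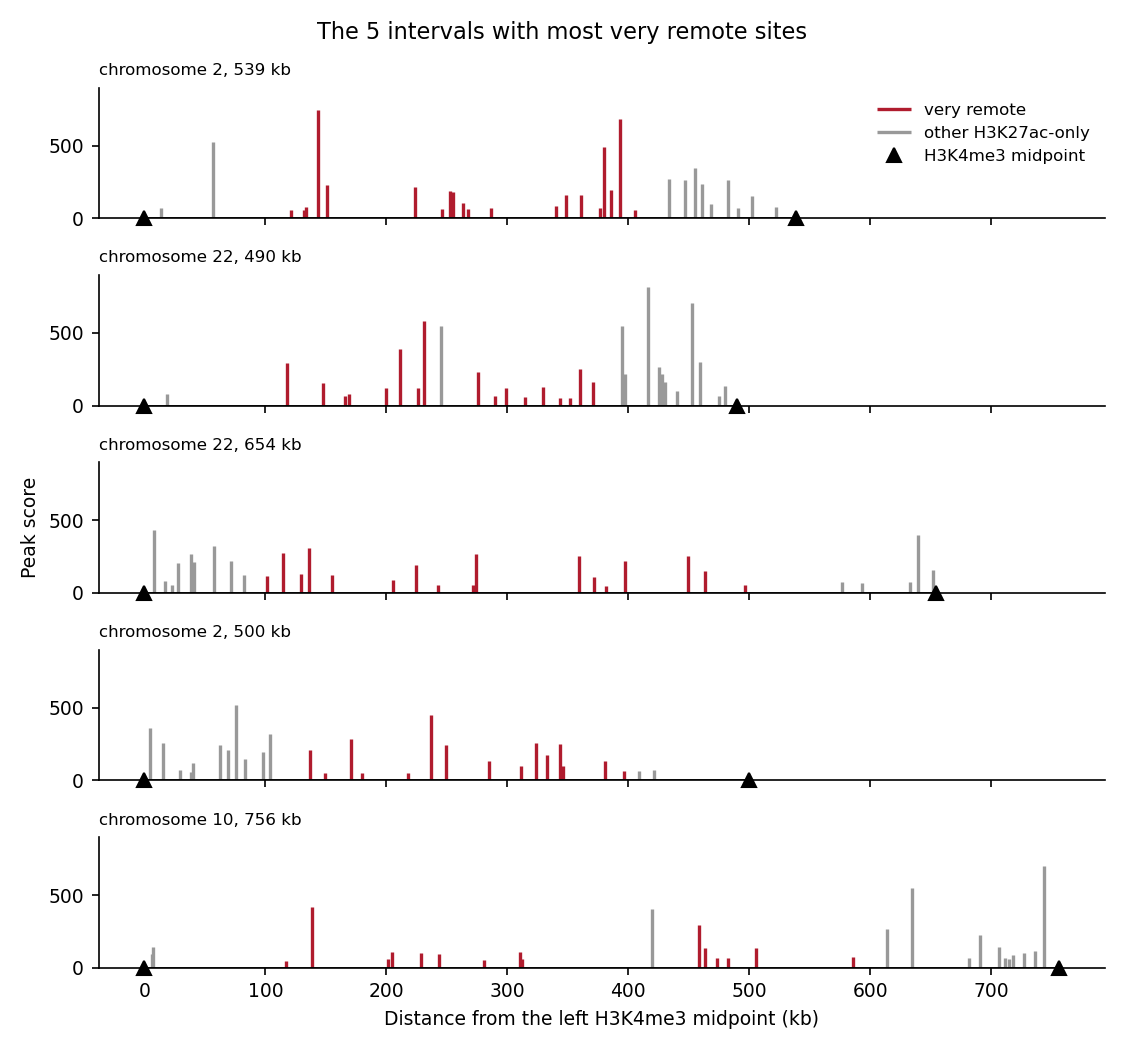
Peak score (vertical axis) of H3K27ac-only peaks along the 5 intervals with most very remote sites, by distance in kb from the left H3K4me3 midpoint, with very remote sites in red, other H3K27ac-only peaks (closer to H3K4me3 or over the width limit) in grey and the bounding H3K4me3 midpoints as triangles. The interval on chromosome 2 of 539 kb holds 20 red peaks, and in the adjoining intervals on chromosome 22 grey peaks are dense beside the H3K4me3 peak that separates them.

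The H3K4me3 peaks that bound the richest intervals were often broad. The 10 intervals are bounded by 19 H3K4me3 peaks, of which 16 overlapped H3K27ac, near the 85.9% of the whole H3K4me3 list, and 8 belonged to the widest quintile of the H3K4me3 list, from 1541 bp upwards. Of the 19, 6 measured 2330 to 4418 bp, against a median of 1151 bp in the whole H3K4me3 list. The share of the whole list that was as wide is not given here, so this count is a description only. Among the 6 were 3490 bp at chromosome 2, 19022973 to 19026462, 3493 bp at chromosome 10, 4694861 to 4698353, and 4418 bp at chromosome 13, 29791062 to 29795479. A bounding peak of 2917 bp at chromosome 13, 1527189 to 1530105, had a score of 2737 in the H3K4me3 list and overlapped no H3K27ac peak. At the other end of the range, 2 of the 19 scored below 100, as did 10.4% of the whole list, one of them at chromosome 22, 9787137 to 9787900, with 70.4.

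The same width was then compared over all intervals of like length, a comparison chosen after these values had been seen. Among intervals over 300 kb and up to 1 Mb, at least 1 bounding peak was in the widest quintile for 70.0% of the 10 intervals with 10 or more sites (39.7 to 89.2) and for 52.0% of the 25 with 5 to 9 sites (33.5 to 70.0). The share was 31.7% of the 101 with 2 to 4 sites (23.4 to 41.3), 28.6% of the 63 with 1 site (18.9 to 40.7) and 34.0% of the 94 with none (25.3 to 44.1). For every pair of neighbouring H3K4me3 peaks in the list it was 35.5% (34.7 to 36.4). The intervals with more sites were also longer, with median lengths of 596 kb for 10 or more sites, 525 kb for 5 to 9 and 392 kb for none. The counting intervals for 10 or more sites and for 5 to 9 sites both overlapped that for none. They treat intervals as independent, although neighbours can share a bounding peak. Among the 10 richest, the adjoining intervals on chromosome 22 share the peak of 3491 bp, which counts for both.

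The nearest H3K4me3 peaks were mostly acetylated, at a share close to that of the whole list. The 833 sites had 403 different H3K4me3 peaks as their nearest, of which 83.1% overlapped H3K27ac (79.2 to 86.5), against 84.5% of the 2653 nearest to distal sites (83.0 to 85.8) and 85.9% of all H3K4me3 peaks (85.3 to 86.5). Their median H3K4me3 score was 743, against 910 for those nearest to distal sites and 1014 for the whole list, and 51 of them, or 12.7%, scored below 100. Of the bounding peaks, 81.6% overlapped H3K27ac for intervals with very remote sites and 81.1% for intervals without. Bounding peaks of intervals with very remote sites had a median score of 738, against 607 for those of intervals without. A peak between an interval of each kind counts in both sets. Intervals with sites were also longer, with a median of 354 kb against 252 kb, and length was not matched here. Of the 577 peaks bounding intervals with very remote sites, 27 had such sites in the intervals on both sides. How many had intervals of over 200 kb on both sides is not given here.

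How many very remote sites stood alone depended on the joining distance. When members with edges up to 10 kb apart were joined, the 833 sites formed 656 groups, of which 514 were single sites, or 61.7% of the sites (58.4 to 64.9). There were 118 pairs, 15 groups of 3, 7 of 4 and 2 of 5. Groups of 3 or more held 83 sites, or 9.96% (8.11 to 12.2), against 20.3% of distal sites joined in the same way (19.2 to 21.4). When joined at 20 kb, groups of 3 or more held 28.0% of very remote sites and 37.9% of distal sites, a smaller contrast in proportion. Another H3K27ac peak of any kind lay within 10 kb of 37.2% of very remote sites (34.0 to 40.5), against 49.8% of distal sites (48.4 to 51.2) and 70.5% of proximal sites (69.2 to 71.7). Within 20 kb the share was 60.9% for very remote sites and 72.8% for distal sites. The median distance from a very remote site to the nearest other H3K27ac peak was 13.4 kb. No other H3K27ac peak lay within 50 kb of 164 very remote sites, or 19.7% (17.1 to 22.5), against 5.44% of distal sites (4.85 to 6.10). Neighbours here include H3K27ac peaks on H3K4me3. By the rule these can lie within 10 kb of a proximal site and within 50 kb of a distal site, but not of a very remote site. Of the 5089 distal sites, 3503 lay at 20 to 50 kb from H3K4me3. The choice of classes thus bears on the contrast with distal sites at 50 kb and with proximal sites at 10 kb. How large its part was there was not tested. The density of peaks beyond 100 kb was also lower, as given above, and its part in the shares of this paragraph was not tested.

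The groups with most members did not consist of strong sites only. The groups of 5 lay at chromosome 13, 29645282 to 29668142, with a median score of 97.2 and a maximum of 193, and at chromosome 2, 5356596 to 5379128, with a median of 101 and a maximum of 187. The second lay 246 to 267 kb from H3K4me3, and sites took up 26.2% of its 22.5 kb. Of the 7 groups of 4, the one with the highest median score, 342, lay at chromosome 2, 5486795 to 5505709, where sites took up 45.7% of 18.9 kb. Other groups of 4 lay on chromosome 2 at 5242968 to 5262970, 19347954 to 19371361 and 22370145 to 22389199, on chromosome 10 at 4397956 to 4423010, on chromosome 13 at 20637489 to 20659265 and on chromosome 22 at 10130869 to 10158759. The interval of 20 sites on chromosome 2 thus contained 3 of the 9 groups of 4 or more. Members of groups of 3 or more had a median score of 99.7, members of pairs 91.9 and single sites 97.9. The median width was 1166 bp in groups of 3 or more and 827 bp in single sites.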

How the data were processed

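ChIP-seq peaks of H3K27ac and H3K4me3 from whole stage 24 embryos were used, 1 list per mark. Per the submitters' processing notes the aligner was Bowtie, and the authors' deposited peak names contain MACS. No source used here gives its settings, control library, build or pooling. The deposited score is the caller's value per peak, of unstated meaning, and was used only within its list. The lists carry no read counts, so depth is unknown.

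Distances ran between midpoints, and an overlap was a shared base. Sequence at a distance was counted between the first and last peak of each chromosome. Shares carry Wilson, numbers exact Poisson and medians order-statistic 95% intervals. They cover counting error or the spread between peaks, not replicates, and no p-value was computed. The members and the lists were chosen with earlier results of these data known. Regions named are the 10 sites of highest score, farthest and widest, the 10 largest groups and the 10 richest intervals, and the sites next to the 100 kb limit; some of the farthest and widest sites are given as counts and ranges, and the smallest group of these 10 is named under its strongest site. The broad peaks outside the width limit, the bounding H3K4me3 peaks and the intervals over 1 Mb were named after their values had been seen. Alternatives covered the distance, width, score and overlap limits. The routines were tested on simulated lists with planted sites. Computing used pandas 2.3.3 and NumPy 2.4.6 under Python 3.11.15, with intervals from SciPy 1.17.1 and figures from matplotlib 3.10.9.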

Additional observations from a re-analysis of the deposited data

How the results depend on the processing

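Of 71 alternatives run over 8 results, 48 left the value within its interval, or a count within 1.5 times, and 23 moved it. None turned a difference round, but the comparisons within width bands and within chromosomes are not among the 71. At like width the very remote median score was above the distal one in each band. Within chromosomes it was below the distal one on only 13 of 24. The interval of the score difference included 0 in 4 of its 9 alternatives. The 48 include the overlap limit of 50% of the peak, run for each of the 8 results. It left every value unchanged and could not have altered sites so far from H3K4me3, so it says nothing on how firm the results are. In all 9 alternatives run for each, the median score and the median width of very remote sites stayed below those of distal sites, by as little as 3.19 in score when only H3K27ac peaks of score 100 or more were used, and density over all chromosomes stayed below that of distal sites in all alternatives run, though not on chromosome 2 alone without intervals over 1 Mb. The number of sites, 833, was 1351 at a limit of 75 kb, 387 at 150 kb and 400 with H3K27ac scores of 100 or more. With H3K4me3 scores of 100 or more it rose to 1053, which is within 1.5 times. Density, 7.02 per Mb, was 8.41 at 75 kb, 5.29 at 150 kb, 7.65 with H3K4me3 scores of 100 or more, 3.37 with H3K27ac scores of 100 or more, 8.81 without intervals over 1 Mb, and 8.13 (distal sites 14.5) in intervals of 300 kb to 1 Mb alone, a setting chosen with the data already seen. The share with a neighbour within 10 kb, 37.2% (distal sites 49.8%), was 20.8% (distal 29.9%) with H3K27ac scores of 100 or more. It was 17.8% (distal 22.2%) within 5 kb and 60.9% (distal 72.8%) within 20 kb. The share in groups of 3 or more, 9.96% (distal sites 20.3%), was 6.98% (distal 19.8%) at 150 kb and 13.0% (distal 25.2%) without a width limit. It was 4.0% (2.48 to 6.40, distal 6.62%) with H3K27ac scores of 100 or more. When joined at 5 kb it was 2.88% (distal 5.80%), and at 20 kb 28.0% (distal 37.9%). The share in the 10 richest intervals, 16.6%, was 11.3% at 75 kb, 27.1% at 150 kb, 13.7% with H3K4me3 scores of 100 or more and 20.5% with H3K27ac scores of 100 or more. The share of acetylated nearest H3K4me3 peaks was 83.1%, against 85.9% of all H3K4me3 peaks. With H3K4me3 scores of 100 or more these were 89.2% and 91.4%, and with H3K27ac scores of 100 or more 76.4% and 78.3%. The whole list thus moved in the same direction. The causes of these shifts were not tested, except that stricter H3K27ac scores and longer distance limits leave fewer very remote sites. Stricter H3K4me3 scores leave fewer H3K4me3 peaks to measure from, and the number of very remote sites then rose. No paired analysis was possible because only 1 list per mark was used. How depth limits the number of sites cannot be said, since it is unknown.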
